A study of Mus musculus with 6 samples.

Results

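The genes of cholesterol synthesis and of its control by the sterol regulatory element binding proteins (SREBPs) were examined in cultured adult neural stem cells. The set was a fixed list of 30 gene symbols, 19 of them enzymes of the pathway and 11 of them genes of the SREBP system or of sterol uptake, transport and storage. All 30 were found among the 24421 genes of the deposited count table, and all 30 were among the 14417 genes with enough reads to be tested. The cells were wild type primary neural stem cells, derived from the subventricular zone, the stem cell niche along the lateral ventricles, of C57BL/6 mice at postnatal day 60. Both groups grew with EGF and FGF2, each at 20 ng/ml, and with a change of medium after 24 h. One group of 3 libraries received 20 µM PluriSIn#2, which the submitters call a topoisomerase IIA inhibitor, for 3 days, and the other group of 3 libraries received DMSO, its control. How many animals gave these cells, and whether each replicate was a culture of its own, stays unstated in the labels. The p-values therefore reflect the variation among the 6 libraries alone, and that variation could be technical. The titles of all 3 treated libraries name PluriSIn#2, but the treatment field of treated replicates 2 and 3 ends in the numbers 3 and 4. Results were therefore also computed with treated replicate 1 alone, where the spread comes from the 3 DMSO libraries only and the lone treated library is assumed to vary as they do.

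Animal cells build cholesterol from acetyl-CoA. The first enzymes make mevalonate and activated isoprenoid units, the next join these units to squalene, and the last close the rings and trim the product to cholesterol. SREBP precursors sit in the membrane of the endoplasmic reticulum with the escort protein SCAP. When sterols are scarce, SCAP carries them to the Golgi apparatus, where the site-1 and site-2 proteases release the fragment that enters the nucleus and raises transcription of the enzymes. When sterols are plentiful, INSIG proteins hold SCAP back, and oxysterols activate the liver X receptors (LXRs), which raise genes of cholesterol export. Brain cells depend on local synthesis because the blood-brain barrier keeps out the cholesterol of plasma lipoproteins.

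Libraries held between 16670962 and 19241869 counts. Most of the transcriptome differed between the groups, with 82.6% of tested genes called by edgeR's quasi-likelihood test at an adjusted p under 0.05 (40.9% lower and 41.7% higher in PluriSIn#2). Top2a, which encodes the targeted enzyme, stood at 878 ± 21.2 CPM (counts scaled to library size, mean ± SD, n = 3) in DMSO and at 6.01 ± 1.29 CPM in PluriSIn#2. Of 7 neural stem cell markers all were measured, 4 fell and 3 rose. Their log2 changes ran from -1.44 (Nes) to 0.81 (Sox9), with a median of -0.21. Their summed level was between 5803 and 5930 CPM in DMSO libraries and between 4645 and 4723 CPM in treated ones. The most abundant, the intermediate filament gene Vim, stood at 2667 CPM in DMSO and 3059 CPM in PluriSIn#2. All 10 cell cycle markers fell, and their summed level was between 3045 and 3069 CPM in DMSO libraries and between 105 and 112 CPM in treated ones.

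All 19 enzymes of the pathway were lower in PluriSIn#2. The 19 enzymes had a median log2 fold change of -1.55, beside 0.01 over all tested genes, and 16 of them were called at least 2-fold lower, as were 11.7% of all tested genes. Their summed level was 3555, 3596 and 3612 CPM in the DMSO libraries and 1234, 1194 and 1208 CPM in the treated libraries, a 2.96-fold difference in means. No treated value of any enzyme reached a DMSO value. Treated values lay wholly below DMSO for 40.9% of all tested genes. With treated replicate 1 alone, all 19 enzymes kept their direction, but the call of Ggps1 ended. The libraries are bulk RNA, so fewer cells of a type and less RNA per cell cannot be told apart.

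**Figure D1:**
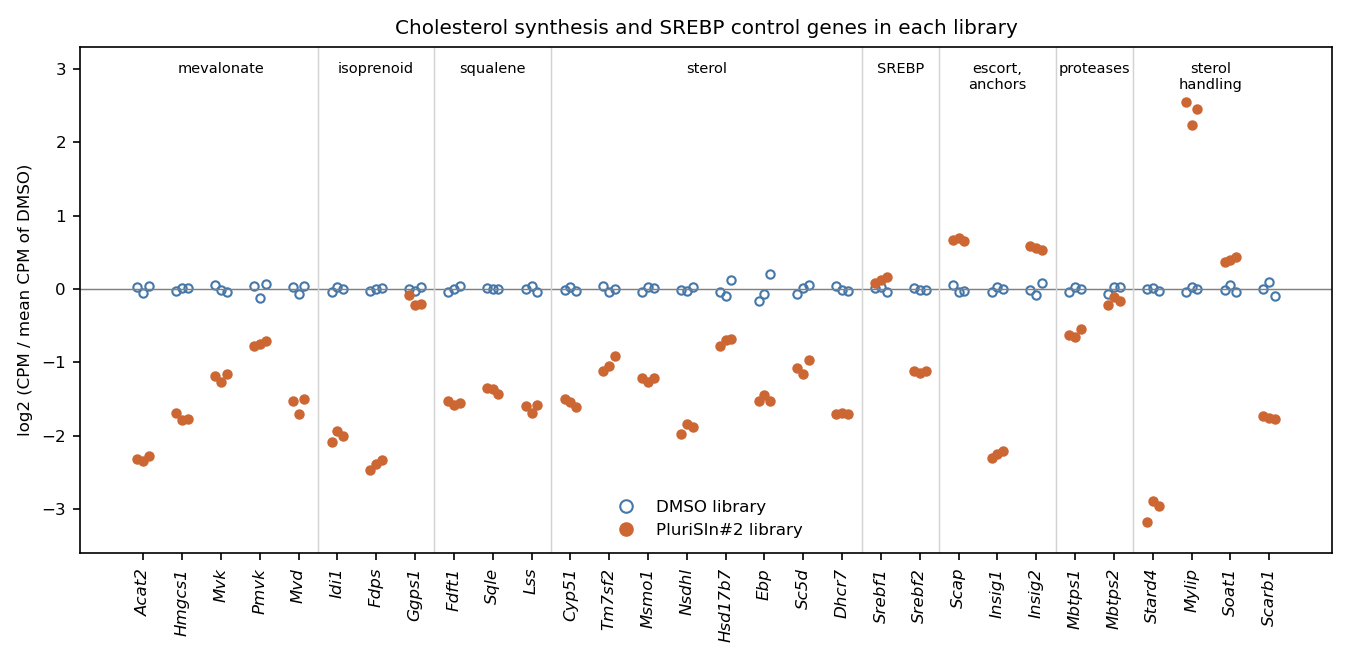
Each of the 30 genes on the x axis, in pathway order and grouped by role, with the log2 ratio of CPM to the DMSO mean on the y axis for 3 DMSO libraries (open blue circles) and 3 PluriSIn#2 libraries (filled orange circles). All 19 enzymes lie below 0 in the treated libraries, with Ggps1 nearest to 0, while Srebf1, Scap, Insig2, Mylip and Soat1 lie above it.

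All 5 listed enzymes of the mevalonate segment fell, and their median was -1.57 on the log2 scale. Acat2, the cytosolic thiolase that joins acetyl-CoA units, stood at 118, 112 and 119 CPM in DMSO and at 23.5, 22.9 and 24.0 CPM in PluriSIn#2. This was a 4.97-fold fall (log2 change -2.31 ± 0.049 SE, edgeR adjusted p = 1.37e-60), the deepest of the 5. Hmgcs1, the cytosolic HMG-CoA synthase, fell from 1192, 1229 and 1228 CPM to 377, 353 and 356 CPM (log2 change -1.75 ± 0.022 SE, edgeR adjusted p = 9.25e-78). The mevalonate kinase gene Mvk was 2.30-fold lower and the diphosphomevalonate decarboxylase gene Mvd 2.98-fold lower. Pmvk, the phosphomevalonate kinase gene between them in the pathway, fell less, from 45.3 ± 3.35 to 27.0 ± 0.627 CPM (log2 change -0.75 ± 0.060 SE, edgeR adjusted p = 3.97e-20).

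The isoprenoid segment held both the deepest and the shallowest fall of the 19 enzymes. Fdps, the farnesyl diphosphate synthase gene, stood at 192, 197 and 198 CPM in DMSO and at 35.5, 37.6 and 38.8 CPM in PluriSIn#2 (5.25-fold lower, log2 change -2.39 ± 0.040 SE, edgeR adjusted p = 7.48e-69). Only 2.97% of tested genes had a lower log2 fold change than Fdps. Idi1, the isomerase gene that supplies the starter unit, fell from 59.6, 62.4 and 60.9 CPM to 14.3, 16.01 and 15.3 CPM (log2 change -2.00 ± 0.063 SE). Ggps1, which extends farnesyl diphosphate to the geranylgeranyl donor used to modify proteins and so leads away from sterols, stood at 39.8, 38.9 and 40.7 CPM in DMSO and at 37.5, 34.1 and 34.7 CPM in PluriSIn#2. Its groups did not overlap, but the treated value nearest to DMSO, that of replicate 1, was 37.5 CPM (log2 change -0.17 ± 0.057 SE, edgeR adjusted p = 0.00588). The Ggps1 call ended with scaling by library totals (adjusted p = 0.105), with treated replicate 1 alone (0.347) and with limma on log2(FPKM + 1) (0.0764) or log2(FPKM + 0.1) (0.0753).

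The 3 enzymes from farnesyl diphosphate to the first ring structure fell by similar amounts, between 1.38 and 1.62 on the log2 scale. Fdft1, the squalene synthase gene and the first committed to sterols, fell from 159, 165 and 169 CPM to 57.2, 54.9 and 55.9 CPM (log2 change -1.55 ± 0.038 SE, edgeR adjusted p = 1.07e-55). Sqle, the squalene epoxidase gene, fell from 347, 343 and 344 CPM to 135, 134 and 127 CPM (log2 change -1.38 ± 0.029 SE). Lss, the lanosterol synthase gene, fell from 169 ± 4.58 to 55.2 ± 2.18 CPM (log2 change -1.62 ± 0.038 SE). Fdft1 is the exception among the 30 genes in how the authors' FPKM relate to their counts. The length implied by counts and FPKM was 3701 bases in DMSO and 2961 bases in PluriSIn#2, 20.0% shorter, whereas for the other 29 genes it differed by under 5%. On log2(FPKM + 1) the Fdft1 difference was smaller, at -1.12. In the GENCODE annotation, 774 exonic bases of Fdft1, 18.3% of its exonic length, also belong to Ctsb on the opposite strand, and Ctsb, a cathepsin gene, rose from 256 CPM to between 1093 and 1097 CPM. The strand setting of the counting was not given in the sources used here, and the part of the overlap in the Fdft1 values was not tested.

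All 8 listed enzymes from lanosterol onwards fell too, and their median was -1.36 on the log2 scale. Nsdhl, a dehydrogenase gene of the demethylation steps, stood at 97.4, 96.4 and 100.5 CPM in DMSO and at 24.9, 27.4 and 26.6 CPM in PluriSIn#2 (3.72-fold lower, log2 change -1.90 ± 0.050 SE, edgeR adjusted p = 1.77e-53). Dhcr7, the gene of the 7-dehydrocholesterol reductase that finishes cholesterol, fell from 192, 184 and 182 CPM to 57.2, 57.7 and 57.4 CPM (log2 change -1.70 ± 0.037 SE). Cyp51, the lanosterol demethylase gene, fell from 375, 385 and 371 CPM to 133, 129 and 123 CPM (log2 change -1.55 ± 0.029 SE). The isomerase gene Ebp was 2.83-fold lower, the methyl sterol oxidase gene Msmo1 2.34-fold, the sterol desaturase gene Sc5d 2.09-fold and the sterol reductase gene Tm7sf2 2.03-fold. The ketoreductase gene Hsd17b7 fell least of the 8, from 60.7 ± 4.89 to 36.9 ± 1.25 CPM (log2 change -0.72 ± 0.054 SE). In these 8 genes too, each treated library lay below each DMSO library.

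Levels of different enzymes were compared per length, in the authors' FPKM (fragments scaled by transcript length and library depth). Hmgcs1 had the highest FPKM of the 30 genes in both groups, 326 ± 5.57 in DMSO and 101.6 ± 3.86 in PluriSIn#2 (mean ± SD, n = 3). In DMSO, Insig1 (133 FPKM), Fdps (128 FPKM) and Sqle (120.1 FPKM) followed. In PluriSIn#2 those ranks went to Srebf1 (70.8 FPKM), Scap (69.2 FPKM) and Srebf2 (55.3 FPKM), and Fdps stood at 25.6 FPKM, rank 10. Ebp was the lowest of the enzymes in both groups, at 10.998 FPKM in DMSO and 4.08 FPKM in PluriSIn#2. Idi1, at 20.4 FPKM in DMSO, was next to it in PluriSIn#2, at 5.32 FPKM. In FPKM the Ggps1 groups overlapped, since treated replicate 1 stood at 15.9 and DMSO replicate 2 at 15.7.

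**Figure D2:**
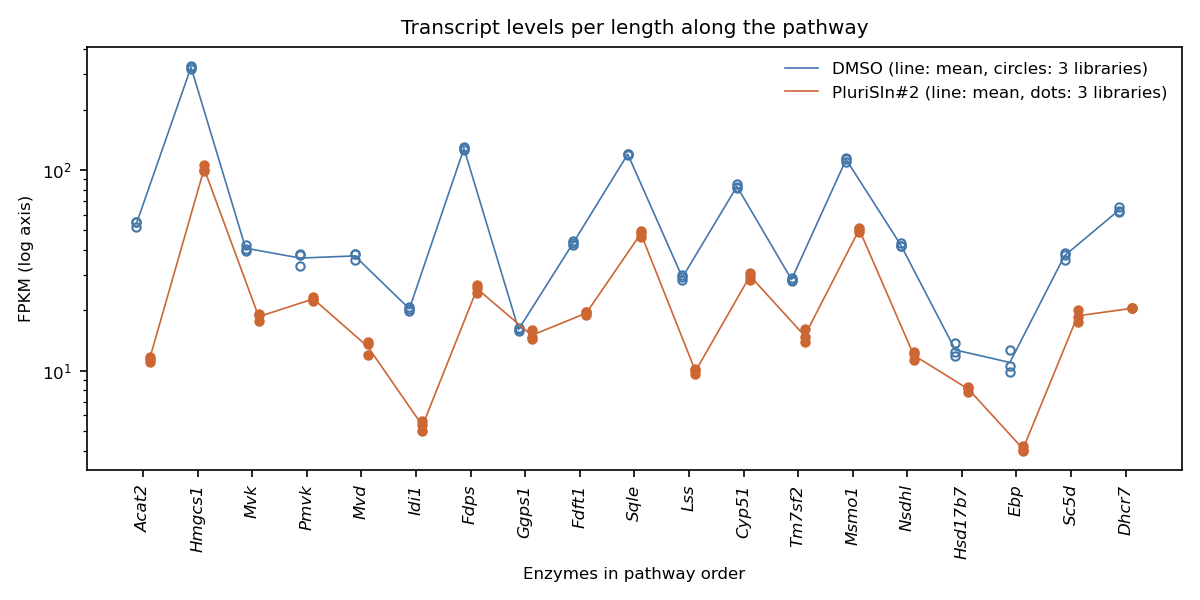
FPKM on a log axis for the 19 enzymes in pathway order, with single libraries as points and group means joined by lines (open blue circles, DMSO; filled orange circles, PluriSIn#2). The profile peaks at Hmgcs1, Fdps, Sqle and Msmo1 in DMSO, and the treated line lies below the DMSO line throughout, closest at Ggps1 (16.1 and 15.01 FPKM).

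The promoters of the genes in the set, fallers and risers alike, were read for motifs of factors that are known to act on genes of this pathway. RefSeq windows of 300 bases, 250 before and 50 after a transcription start (GRCm38.p6), were matched by symbol for 25 of the 30 genes, in 33 windows, and not for Fdps, Fdft1, Sqle, Stard4 and Scarb1. On either strand, CCAAT, the box bound by NF-Y, a usual partner of SREBPs, was found in 22 of the 33 windows (66.7%) and in 37.5% of the 13924 windows of tested genes. By gene, 17 of 20 fallers and 4 of 5 risers with a window held a CCAAT in any of their windows, so the motif was present on both sides. The 37.5% is by window, and no share by gene was computed over all tested genes. GGGCGG, a GC box bound by SP1, was found in 26 windows (78.8%, beside 61.3% for tested genes). TCACNCCAC, the core of the classical sterol response element, was found in 1 window, that of Hmgcs1, starting at base -137 from the start, and in 1.19% of the windows of tested genes. TCACNTGA, an E-box form also bound by SREBPs, was in 1 window, that of the most downstream of 3 Insig2 starts (3.90% for tested genes). A match is no proof of binding, and a missing match says only that the letters are not in the window.

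The 250 bases before the start are shown for 3 falling enzymes with matches, with CCAAT (or ATTGG, the same box read on the other strand) and the sterol response core in capitals. In Mvk the 4 boxes on the minus strand start at bases -173, -120, -67 and -14, spaced by 53 bases each time.
Hmgcs1 (chr13:119690101-119690350, plus strand): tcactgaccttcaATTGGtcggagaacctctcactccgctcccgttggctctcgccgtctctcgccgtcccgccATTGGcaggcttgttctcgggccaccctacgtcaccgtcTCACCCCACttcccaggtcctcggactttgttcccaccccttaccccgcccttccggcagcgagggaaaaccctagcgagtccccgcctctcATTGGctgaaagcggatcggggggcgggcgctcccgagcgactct
Mvk (chr5:114444019-114444268, plus strand): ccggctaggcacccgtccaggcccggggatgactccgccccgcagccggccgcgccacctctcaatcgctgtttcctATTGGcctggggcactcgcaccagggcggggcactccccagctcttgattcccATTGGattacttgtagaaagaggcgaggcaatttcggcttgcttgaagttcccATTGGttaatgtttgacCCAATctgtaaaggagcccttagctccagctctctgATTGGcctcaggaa
Msmo1 (chr8:64733579-64733828, minus strand): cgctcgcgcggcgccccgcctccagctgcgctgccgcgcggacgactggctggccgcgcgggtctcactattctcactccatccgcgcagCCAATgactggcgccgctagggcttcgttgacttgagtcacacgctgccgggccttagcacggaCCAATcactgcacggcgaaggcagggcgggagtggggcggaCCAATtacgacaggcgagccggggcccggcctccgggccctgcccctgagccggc

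The genes of the SREBP system did not move as a block. Of the 2 factor genes, Srebf2, whose product mainly drives cholesterol enzymes, fell, and Srebf1, whose products lean to fatty acid enzymes, was slightly higher. Srebf2 stood at 556, 547 and 545 CPM in DMSO and at 253, 249 and 254 CPM in PluriSIn#2 (2.18-fold lower, log2 change -1.13 ± 0.024 SE, edgeR adjusted p = 4.79e-60). Srebf1 stood at 274, 275 and 264 CPM in DMSO and at 288, 295 and 305 CPM in PluriSIn#2 (log2 change 0.13 ± 0.027 SE, edgeR adjusted p = 1.52e-05). The treated Srebf1 values all lay above DMSO, but the call ended with treated replicate 1 alone (adjusted p = 0.0565). Counts here are per gene and do not part the isoforms of Srebf1.

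Insig1 and Insig2, which encode the proteins that anchor SCAP in the endoplasmic reticulum, moved in opposite directions. Insig1, itself a gene that SREBPs are known to raise, stood at 359.6, 377 and 371 CPM in DMSO and at 74.7, 78.0 and 79.7 CPM in PluriSIn#2 (4.77-fold lower, log2 change -2.25 ± 0.031 SE, edgeR adjusted p = 5.03e-75). Insig2 stood at 24.97, 23.9 and 26.8 CPM in DMSO and at 37.8, 37.3 and 36.5 CPM in PluriSIn#2 (1.48-fold higher, log2 change 0.56 ± 0.063 SE, edgeR adjusted p = 2.23e-13). Neither gene's groups overlapped, as was so for 82.7% of all tested genes. Scap, the escort gene, rose from 189.8, 178 and 179.7 CPM to 289, 297 and 288 CPM (log2 change 0.68 ± 0.028 SE, edgeR adjusted p = 3.16e-38). In the annotation 985 exonic bases of Scap are shared with an unclassified transcript on the opposite strand.

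**Figure D3:**
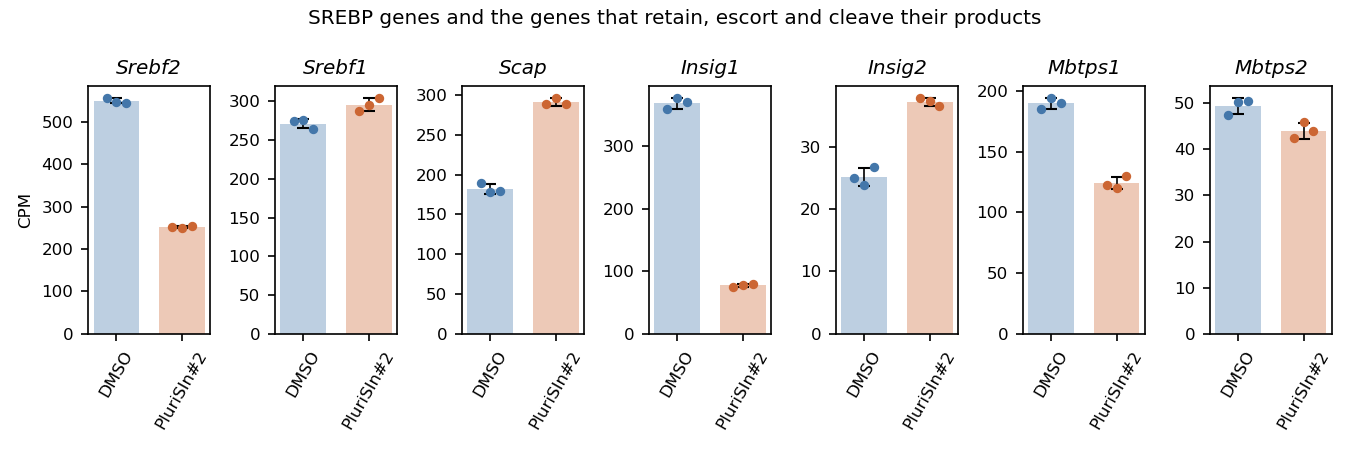
CPM in each library (points), with group mean (bars from 0) and SD (error bars, n = 3), for the SREBP genes and the genes that escort, retain and cleave their products; each panel has its own y axis. Srebf2 and Insig1 are lower in all 3 PluriSIn#2 libraries, and Scap and Insig2 are higher in all 3.

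Both proteases of SREBP release were lower. Mbtps1, the site-1 protease gene, fell from 185, 194 and 190.3 CPM to 123, 120.2 and 130.0 CPM (log2 change -0.61 ± 0.032 SE, edgeR adjusted p = 4.55e-31). Mbtps2, the site-2 protease gene, stood at 47.4, 50.3 and 50.5 CPM in DMSO and at 42.4, 45.9 and 44.0 CPM in PluriSIn#2 (log2 change -0.16 ± 0.052 SE, edgeR adjusted p = 0.00299). The Mbtps2 call ended with scaling by library totals (adjusted p = 0.0839) and with limma on log2(FPKM + 1) (0.149) or log2(FPKM + 0.1) (0.148). In the annotation 28.4% of the exonic length of Mbtps2 is shared with Yy2, which was not called.

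Ratios within a library do not depend on how libraries are scaled. The count of Insig1 was 14.4, 15.8 and 13.9 times that of Insig2 in the DMSO libraries and 1.98, 2.09 and 2.18 times in the treated libraries, a 7.04-fold smaller ratio. The ratio of Srebf2 to Srebf1 counts was 2.03, 1.99 and 2.06 in DMSO and 0.878, 0.843 and 0.833 in PluriSIn#2, so that the order of these counts turned. For each of these 2 ratios the groups did not overlap, and the exact two-sided permutation test gave p = 0.10, the smallest value that 3 against 3 samples allow (0.10 after Benjamini-Hochberg adjustment over the 2). The summed counts of the 19 enzymes were 2.78, 2.84 and 2.88 times those of Srebf1, Srebf2, Scap, Insig2, Mbtps1 and Mbtps2 together in DMSO, and 1.196, 1.14 and 1.14 times in PluriSIn#2. Of those 6 genes 3 fell and 3 rose, beside 40.9% lower and 41.7% higher among all tested genes. Their median log2 fold change was -0.02, beside 0.01 over all tested genes and -1.55 for the enzymes. Insig1 was left out of the 6 because SREBPs are known to raise it as they do the enzymes. With Insig1 added, 4 of 7 fell, the median was -0.16, and the ratio was 2.03-fold smaller in PluriSIn#2 in place of 2.44-fold.

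**Figure D4:**
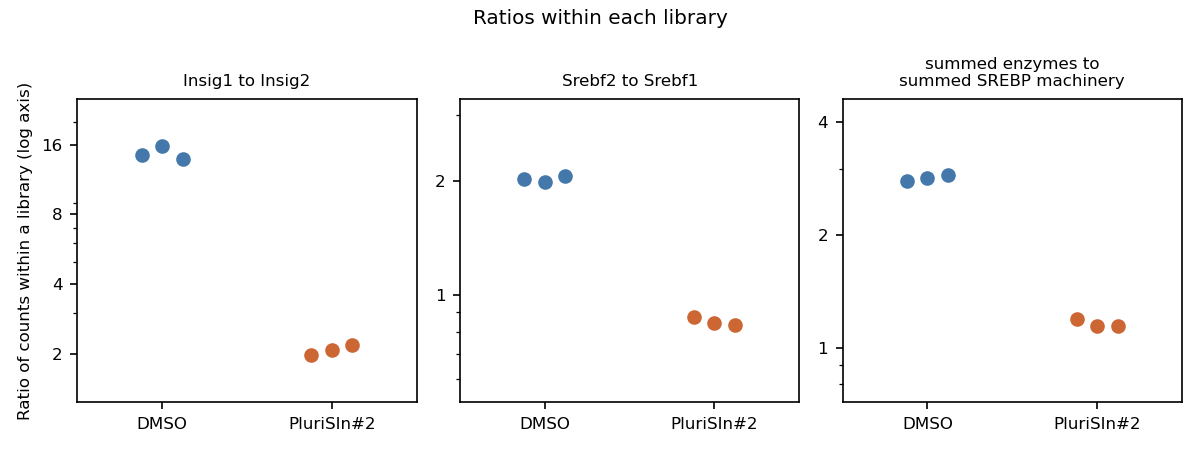
Ratios of counts within each library on log axes, 1 point a library, for Insig1 to Insig2, Srebf2 to Srebf1, and the 19 enzymes to 6 SREBP genes. In each panel the 3 PluriSIn#2 points lie below the 3 DMSO points, and the Srebf2 to Srebf1 ratio passes from between 1.99 and 2.06 to at most 0.878.

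The upstream sequences of the genes at these turns are shown for comparison of Srebf2, Insig1 and Insig2 (the most upstream of 3 Insig2 windows), again with 250 bases before the start. The other Insig2 windows hold no CCAAT, and counts per gene do not tell which start is used. Capitals mark CCAAT or ATTGG and, in Srebf2, TCACCCCA at base -162, the first 8 letters of the sterol response core with C at its open position. This shorter string was searched after the Srebf2 sequence had been seen. It overlaps the longer core, so that the Hmgcs1 match holds both, and 1.46% of the windows of tested genes hold it.
Srebf2 (chr15:82147019-82147268, plus strand): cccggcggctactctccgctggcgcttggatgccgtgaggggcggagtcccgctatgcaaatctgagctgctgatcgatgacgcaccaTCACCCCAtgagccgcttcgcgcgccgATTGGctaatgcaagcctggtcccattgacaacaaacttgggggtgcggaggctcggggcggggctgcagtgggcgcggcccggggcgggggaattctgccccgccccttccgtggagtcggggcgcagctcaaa
Insig1 (chr5:28071162-28071411, plus strand): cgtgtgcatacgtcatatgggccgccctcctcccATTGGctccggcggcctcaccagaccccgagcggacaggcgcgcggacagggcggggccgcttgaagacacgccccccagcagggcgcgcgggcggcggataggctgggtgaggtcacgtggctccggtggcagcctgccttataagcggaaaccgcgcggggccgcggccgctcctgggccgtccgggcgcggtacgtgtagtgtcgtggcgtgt
Insig2 (chr1:121332590-121332839, minus strand): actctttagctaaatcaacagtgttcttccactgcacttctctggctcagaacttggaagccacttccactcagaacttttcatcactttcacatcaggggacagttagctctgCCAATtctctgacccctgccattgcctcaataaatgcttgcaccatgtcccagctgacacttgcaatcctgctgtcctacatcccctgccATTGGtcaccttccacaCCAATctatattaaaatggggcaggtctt

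The 4 genes of sterol handling ran from the lowest to the highest log2 change of the 30 genes. Of the 4, 2 were lower and 2 higher, beside 40.9% lower and 41.7% higher among all tested genes. Stard4, which encodes a carrier that moves cholesterol between membranes, fell furthest of the 30 genes, from 98.6, 99.6 and 96.5 CPM to 10.9, 13.2 and 12.7 CPM (log2 change -3.00 ± 0.059 SE, edgeR adjusted p = 3.77e-63). Only 2.04% of tested genes had a lower log2 fold change. Scarb1, the gene of a receptor for high-density lipoprotein, fell from 157, 168 and 147 CPM to 47.4, 46.8 and 46.2 CPM (log2 change -1.75 ± 0.042 SE, edgeR adjusted p = 1.18e-56). Soat1, which encodes the enzyme that esterifies cholesterol for storage, rose from 63.6, 66.4 and 62.4 CPM to 83.0, 84.4 and 87.0 CPM (log2 change 0.40 ± 0.043 SE, edgeR adjusted p = 1.63e-14).

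Mylip, the gene of an E3 ligase that marks lipoprotein receptors for degradation and a known LXR target, rose most of the 30. It had 24, 25 and 26 reads in the DMSO libraries and 143, 118 and 129 reads in the treated ones. In CPM it stood at 1.34, 1.41 and 1.39 in DMSO and at 8.06, 6.47 and 7.55 in PluriSIn#2 (5.31-fold higher, log2 change 2.41 ± 0.18 SE, edgeR adjusted p = 1.88e-21). On log2(FPKM + 1), a scale that understates the change of low genes, the difference was 1.27, and on log2(FPKM + 0.1) it was 2.24. It was also the least abundant of the 30 genes per length in both groups, at 0.443 and 2.48 FPKM. Its upstream sequence is shown as that of the strongest riser. Macrophage markers, low in DMSO, were higher in the same libraries, and their part in the Mylip values was not tested. The window is shown with 3 CCAAT boxes on the minus strand in capitals and no sterol response core in the window.
Mylip (chr13:45389492-45389741, plus strand): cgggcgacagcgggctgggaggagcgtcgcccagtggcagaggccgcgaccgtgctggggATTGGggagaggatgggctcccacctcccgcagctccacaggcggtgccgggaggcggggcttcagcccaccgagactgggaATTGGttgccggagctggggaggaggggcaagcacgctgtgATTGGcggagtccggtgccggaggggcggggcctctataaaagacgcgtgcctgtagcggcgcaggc

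Over the whole set, 25 of the 30 genes were called lower (40.9% of all tested genes) and 5 higher (41.7%), and the median was -1.31 on the log2 scale. The groups did not overlap for any of the 30, with 25 wholly below and 5 wholly above DMSO; over all tested genes 82.7% did not overlap, and 41.8% lay wholly above. With treated replicate 1 alone, all 30 genes kept their direction, but the calls of Ggps1 and Srebf1 ended. The authors' deposited table gave log2 fold changes of the same sign for all 30 genes, within 0.00694 of the values here. In the annotation 11 of the 30 genes share exonic bases with another gene, 7 of them with a gene of the count table. For Fdps the overlap is 26.7% of its exonic length, on the same strand, with Gm43738, which is not among the counted genes. For Tm7sf2 it is 12.1%, on the same strand, with Vps51, which rose from 63.3 to 73.9 CPM. How reads in shared bases were assigned is unknown, so these levels are uncertain to that extent. Among treated libraries, replicate 3 held the highest CPM of the 3 for 14 of the 30 genes, replicate 1 for 9 and replicate 2 for 7.

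Other genes that SREBPs, sterols or isoprenoids touch were counted from lists drawn up by role. Their counts stand beside 40.9% lower and 41.7% higher among all tested genes, and a share near these is no result about a list. Of 15 genes of fatty acid and lipid synthesis that SREBPs are known to regulate, 10 fell, 4 rose and 1 was not called (median log2 fold change -0.50). The stearoyl-CoA desaturase gene Scd1 fell from 486 ± 7.96 to 192 ± 3.23 CPM (log2 change -1.34 ± 0.026 SE), and the elongase gene Elovl5 rose from 286 ± 8.41 to 408 ± 1.88 CPM (log2 change 0.51 ± 0.025 SE). Of 16 genes that use isoprenoids for dolichol, ubiquinone and protein prenylation, 6 fell, 4 rose and 6 were not called (median 0.03), and 6 of 16 lower is near the 40.9% of all tested genes. The solanesyl diphosphate synthase subunit gene Pdss1 fell by 0.98 on the log2 scale, and Fnta, a farnesyltransferase subunit gene, rose by 0.62. Of 10 genes of the COPII coat, which carries SCAP and SREBPs to the Golgi, 7 fell, 2 rose and 1 was not called. The changes were small, with a median of -0.18, from Sec24b (-0.34) to Sar1b (0.61).

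Among 8 genes for the sterol-regulated breakdown of pathway proteins, 5 rose, 2 fell and 1 was not called (median log2 fold change 0.25). Erlin1, which encodes a membrane scaffold protein of the endoplasmic reticulum, fell from 41.7 ± 3.41 to 14.97 ± 1.23 CPM (log2 change -1.48 ± 0.071 SE). Of 18 genes of sterol trafficking and lipoprotein uptake, 10 rose, 5 fell and 3 were not called (median 0.25), beside 41.7% higher and 40.9% lower over all tested genes. Lrp1, an apolipoprotein E receptor gene, rose from 400.1 ± 12.1 to 936 ± 18.3 CPM (log2 change 1.23 ± 0.022 SE). Tmem97, whose product binds the lysosomal cholesterol exporter NPC1, fell from 68.2 ± 3.67 to 8.92 ± 0.387 CPM (log2 change -2.94 ± 0.069 SE), close in size to the fall of Stard4.

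The genes of LXR, cholesterol efflux and oxysterol metabolism moved against the enzymes. Of 10 listed, 9 were tested and all 9 rose, beside 41.7% of all tested genes. Their median log2 fold change was 2.00. Ch25h, which had too few reads to be tested, stood at or below 0.293 CPM in every library. Cyp27a1, among the 9, had only 6, 2 and 9 reads in DMSO and 11, 23 and 16 in PluriSIn#2. With a filter of at least 1 CPM in 3 libraries, 8 genes of the list were called higher. Apoe, the main lipid carrier of the brain, stood at 268, 258 and 254 CPM in DMSO and at 5327, 5575 and 5545 CPM in PluriSIn#2 (21.1-fold higher, edgeR adjusted p = 2.69e-111). The cholesterol exporter gene Abca1, chosen after its values were seen, rose from 56.6 ± 0.923 to 669 ± 13.6 CPM (log2 change 3.56 ± 0.030 SE).

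Marker transcripts of other cell types moved in the same libraries. Called counts are to be read beside 40.9% lower and 41.7% higher among all tested genes, and a share near these says nothing about a list. Of 14 macrophage markers, 12 were tested and all 12 rose. Their summed level was between 8.16 and 9.63 CPM in DMSO and between 186 and 193 CPM in PluriSIn#2. Trem2 had no read in DMSO, and Lyz2, the most abundant, went from 1.26 to 81.7 CPM. Fibroblast and mural markers rose in 7 of 8 cases (summed level between 23.7 and 24.6 CPM in DMSO and between 219.95 and 225 CPM in PluriSIn#2), and endothelial markers in 5 of 6 (5.07 to 5.79 and 27.1 to 30.5 CPM). Cdh5, the most abundant endothelial marker, went from 0.128 to 16.5 CPM and carried most of the endothelial sum in PluriSIn#2. Macrophages and astrocytes are both known to express Apoe and Abca1. All 7 astrocyte markers rose, from between 1570.2 and 1595 CPM to between 3905 and 3961 CPM in sum. All 7 oligodendrocyte precursor markers fell, with a median log2 change of -3.54. Gpr17 was 239-fold lower, Sox10 27.2-fold, Bcas1 21.9-fold and Pdgfra 11.6-fold (these 4 were chosen after their values were seen). The treated libraries held only 2, 4 and 1 reads of Gpr17 and 16, 18 and 13 of Sox10, so these folds rest on few reads. The summed level of the 7 moved less, from between 2918 and 3049 CPM to between 2350.0 and 2420.4 CPM. Olig1 and Olig2 make up most of that sum, and Olig1 differed by only -0.07 on the log2 scale. The Olig1 groups overlapped, with treated replicate 3 at 1691.6 CPM and DMSO replicate 3 at 1690.1 CPM. Of 8 myelin markers 5 were tested and 4 fell (169.5 to 172 and 146 to 154 CPM in sum). Of 6 neuron markers 1 fell, 3 rose and 2 were not called (929.9 to 979.8 and 455 to 462 CPM in sum). Map2, the one that fell, carried most of that sum, with 892 CPM in DMSO and 383 CPM in PluriSIn#2, and Rbfox3, Snap25 and Syt1 rose. None of these lists had a marker at 0 in all treated libraries. The part of these cells, and of the fall in cell cycle genes, in the values of the 30 genes was not tested.

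**Figure D5:**
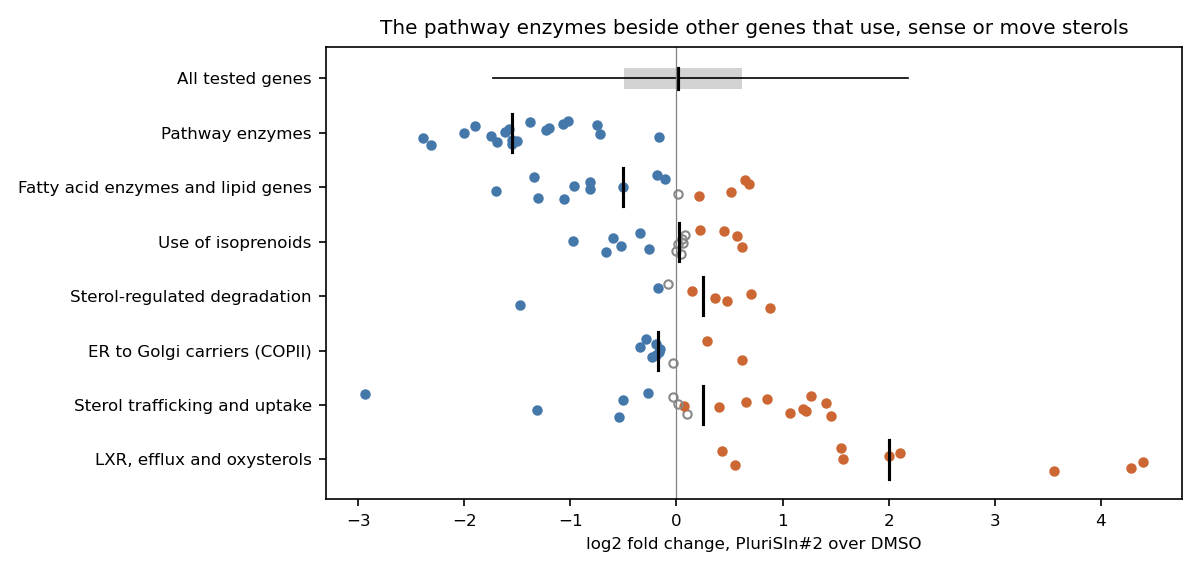
Log2 fold change of PluriSIn#2 over DMSO on the x axis for single genes of each list (blue filled, called lower; orange filled, called higher; grey open, not called), with the list median as a black bar; the top line gives the 5th to 95th percentile of all tested genes, its grey box the middle of the distribution from the 25th to the 75th percentile. The enzymes lie to the left of 0 around -1.55 and the LXR, efflux and oxysterol genes to the right around 2.00.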

How the data were processed

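RNA of 6 libraries was sequenced. The deposited count table holds whole-number read counts per gene symbol, and the deposited FPKM table holds FPKM, log2 fold changes and p-values computed by the authors. The tools named in the submitters' processing notes are DESeq, HTSeq and STAR, with build mm10. Versions, annotation, strand setting and any filter remain not given in the sources used here. Here, counts were filtered with filterByExpr, scaled by TMM and tested with edgeR 4.0.16 in R 4.3.3 (glmQLFit, glmQLFTest, group as the only term, two-sided, Benjamini-Hochberg over 14417 genes, threshold 0.05). SEs are the fitted log2 change before shrinkage over the root of F. CPM use library totals times TMM factors. The fit was tested on simulated data in which only a small part of the genes changed. That does not show how it behaves where most genes differ, as here. Alternatives used DESeq2 1.42.0, limma 3.58.1 on log2(FPKM + 1) and on log2(FPKM + 0.1), other scalings and filters, a replicate block and left-out libraries. Coordinates and overlaps come from GENCODE M21 (GRCm38, which mm10 denotes), and sequences from RefSeq. Replicates differed by more than sampling noise (chi-square per degree of freedom from 1.56 to 2.22).

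The members and lists were chosen with earlier results of these data known. The text names all 30 members, Top2a, the called gene with the smallest p in each direction of each pathway list, and the most abundant marker of each cell type it describes by gene. Genes outside that rule were picked with their values in view: those sharing exonic bases with a member, Abca1, Ch25h, Cyp27a1, Trem2 and single stem cell, precursor and neuron markers. A result that this rule would name is not reported here.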

Additional observations from a re-analysis of the deposited data

How the results depend on the processing

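Over 15 alternatives, every one of the 30 genes kept its direction. The calls of 27 genes held throughout, and those of Ggps1 (4 alternatives), Mbtps2 (3) and Srebf1 (1) ended under the settings given with their values. Between 23 and 25 genes were called lower, and 4 or 5 higher. Leaving out any single library left 25 lower and 5 higher. Among genes that use isoprenoids, scaling by library totals alone called 7 higher in place of 4, and limma on FPKM called 6. The log2 difference in the ratio of summed enzymes to 6 SREBP genes was -1.29, -1.24 with treated replicate 1 alone and -1.02 with Insig1 added, an alternative chosen after seeing the data. Replicate numbers are shared by the groups. Deviations of same-numbered libraries had correlations of 0.0134, 0.0293 and -0.0025, and those of differently numbered ones lay between -0.0269 and 0.0130. With 3 libraries a group, these values cannot show whether the numbers are a pairing. With the replicate block, 25 of the 30 genes were called lower and 5 higher, and over all genes 5867 lower and 5984 higher in place of 5900 and 6015. With 3 libraries a group, small differences such as that of Ggps1 rest on little. Among the 30 genes, the log2 change of Mylip moved most, from 2.41 to 1.27 on log2(FPKM + 1). Mylip, with 24 to 26 reads a DMSO library, is the gene most limited by depth.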
